A study of Sus scrofa with 10 samples.

Results

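Glycolysis, glycogen and phosphocreatine genes code for the enzymes that supply a fast muscle with ATP when it contracts. They were taken as 38 listed gene symbols, of which 36 were matched to an identifier in the deposited table of 25880 genes. The other 2, PGM1 and MPC1, were not analysed here. Of the matched genes, 17 were grouped as glycolysis, 11 as glycogen, 4 as pyruvate entry and 4 as phosphagen or adenylate.

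Glycolysis splits glucose into pyruvate in the cytosol, and in muscle most of the glucose comes from glycogen, which phosphorylase breaks down and glycogen synthase builds up. Pyruvate then becomes lactate, or it is carried into the mitochondrion and converted to acetyl-CoA by the pyruvate dehydrogenase complex. Creatine kinase keeps ATP steady during the first seconds of work by passing phosphate between creatine and ADP, and adenylate kinase and AMP deaminase handle the ADP and AMP that build up. In pigs the glycogen held in the loin at slaughter is known to shape the acidity and colour of the meat.

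The samples were longissimus lumborum (loin) muscle of Portuguese purebred castrated male pigs, 5 Alentejano (AL) and 5 Bísaro (BI), each sequenced as 1 library. The labels give both breeds a carcass weight of 150 kg, whereas in the study's methods 150 kg is the weight of the pigs at slaughter. The methods give free-range rearing with commercial diets for both breeds, and neither source gives the age of the pigs. Each pig is named by its breed and animal number, such as AL44. A library holds RNA from a whole piece of muscle, so that fewer fibres of a type and less RNA per fibre cannot be told apart.

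Values are normalised counts, that is reads counted on a gene divided by the size factor of the pig, so 1 unit is close to 1 read. Reads on genes ranged from 2298045 to 3343194 per pig, and the 10 genes with the most reads took 48.5% (AL44) to 60.3% (BI34) of them. The study reports far more sequenced reads per sample, nearly all of them aligned, so that the deposited counts hold only a small part. The reason was not tested, and a low count here need not mean a low level in the muscle. A value of 3 reads, which corresponds to between 2.47 and 3.39 normalised counts depending on the pig, was used as the lower limit for reading a level, and it covers counting error only. Most of the listed fast muscle genes were abundant, from TNNT3, fast troponin T (means of 9072 in AL and 12392 in BI), to MYL1 (330 and 388). PVALB, also listed, averaged below 3 in both breeds. Of the adipocyte list, PPARG had 0 reads, and ADIPOQ, LEP and SCD averaged below 1 in both breeds. PLIN1 (means of 2.72 in AL and 1.28 in BI) and FABP4 (1.14 and 1.81) averaged below 3. Higher were PLIN4 (92.7 and 86.4), LIPE (13.1 and 14.7), CIDEC (7.72 and 14.4), FASN (7.89 and 4.67) and LPL (5.15 and 5.84). Within each breed the libraries differed from each other far beyond counting error, with a chi-square per degree of freedom of 9.73 to 48.98 over 20 pairs. AL44 and BI34 stood apart in many of the genes below.

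Several of these enzymes exist as a muscle form and a form typical of other tissues, and the similarity of their coding sequences bears on whether reads can be assigned to one gene. The longest identical runs between coding sequences are shown for PFKM and PFKL (muscle and liver phosphofructokinase) and for ENO3 and ENO1 (beta and alpha enolase). These are examples from the 7 pairs compared. The sequences were read from Sscrofa11.1 at the RefSeq coding exons, with the shared run in capitals and 12 bases of flank on each side that are free to differ.
PFKM, chr5:78512759-78512805, plus strand: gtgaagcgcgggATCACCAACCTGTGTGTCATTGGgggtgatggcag
PFKL, chr13:207176355-207176401, plus strand: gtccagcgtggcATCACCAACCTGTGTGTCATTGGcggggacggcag
ENO3, chr12:51956627-51956679, minus strand: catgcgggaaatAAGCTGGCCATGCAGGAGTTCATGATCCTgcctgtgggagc
ENO1, chr6:69391400-69391452, minus strand: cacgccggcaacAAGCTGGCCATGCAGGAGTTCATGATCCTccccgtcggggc
The shared run is 23 bases in the first pair and 29 bases in the second, which was the longest of the 7 pairs compared. PFKM and PFKP, the platelet form, also share a run of 23 bases. In none of the 7 pairs did the coding sequences share a stretch of 40 bases.

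The muscle form made up most of the counts in phosphofructokinase and nearly all in aldolase, phosphoglycerate mutase, enolase and creatine kinase in every pig. Shares were computed within a pig from normalised counts per kb of transcript. They may hold reads of the opposite strand, since it is not known whether reads were counted by strand. Genes of the opposite strand overlap exons of PFKM (179 bp), ALDOA (83 bp) and PGAM2 (122 bp), and a long non-coding RNA gene lies within PFKP. PFKM, which commits fructose 6-phosphate to glycolysis, made up 85.5% ± 1.97 of the phosphofructokinase transcripts in AL and 86.5% ± 1.68 in BI (SD, n = 5 each). PFKP, the platelet form, supplied 14.3% ± 2.02 and 13.3% ± 1.51, and PFKL 0.149% and 0.166%. The form typical of another tissue thus had a clear share in phosphofructokinase, which was larger than in the families that follow.

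ALDOA, the aldolase of muscle, held between 99.9% (AL49) and 100% of aldolase transcripts, with ALDOC, the brain form, at 4 reads in all AL pigs together and 1 read in all BI pigs. PGAM2, the muscle phosphoglycerate mutase, held 99.5% ± 0.259 in AL and 99.2% ± 0.310 in BI. ENO3 held 99.7% ± 0.0542 and 99.8% ± 0.0723. In these families the other form was at or below 1.18% of the transcripts in each pig. Among the creatine kinases CKM, the cytosolic muscle form, held 98.04% ± 0.414 in AL and 98.5% ± 0.109 in BI, and CKMT2, the mitochondrial form of muscle, held the rest.

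Hexokinases, which phosphorylate glucose on entry, had few reads in both breeds. HK2, the insulin-responsive muscle form, had 4.72, 5.58, 9.71, 4.45 and 11.3 normalised counts in AL44, AL46, AL49, AL52 and AL63, and 2.47, 5.51, 1.72, 7.02 and 8.45 in BI25, BI34, BI36, BI37 and BI42. HK1 was at 0 to 2.004 in all pigs but AL63, where 4 reads gave 4.52. The HK2 share of 53.7% in BI36 rests on a pair of genes that were both under 3 reads in that pig.

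**Figure D1:**
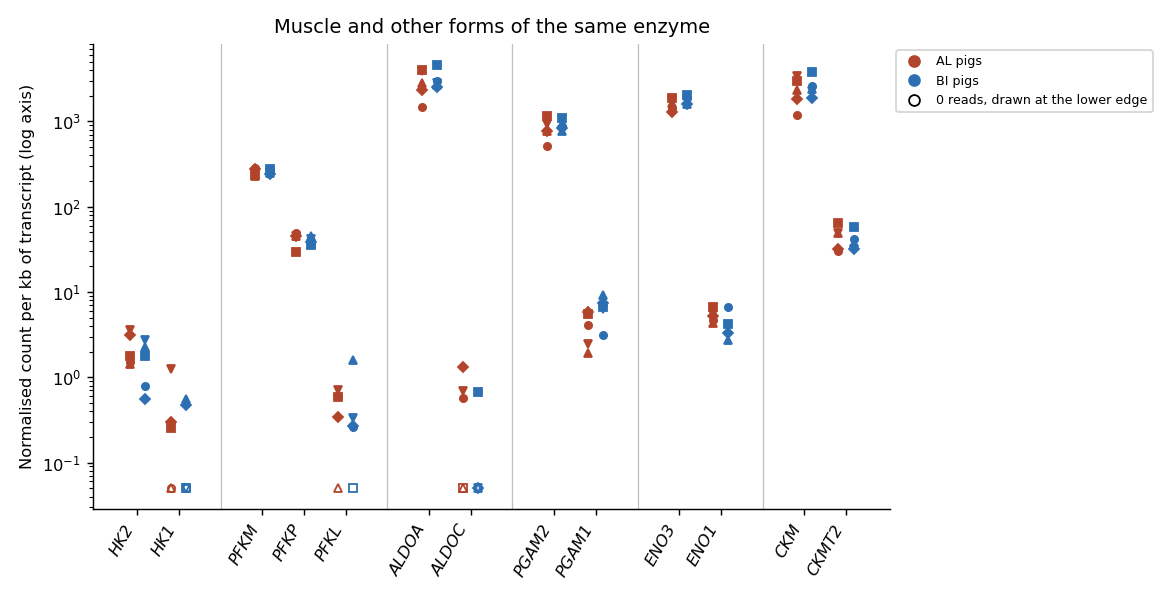
Normalised count per kb of transcript (log axis) of the forms of 6 enzymes, with 1 symbol for each of the 5 AL (red) and 5 BI (blue) pigs and values of 0 reads drawn open at the lower edge. In aldolase, phosphoglycerate mutase, enolase and creatine kinase the muscle form lies above the other form in all pigs, while PFKP lies below PFKM by less, near 41.2 against 256 on average.

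Per kb of transcript the order of the genes ran from GYS1 at 4727 down to HK1 at 0.284, as the mean of 10 pigs. GYS1, muscle glycogen synthase, was above ALDOA (3007) in all 10 pigs. On the opposite strand, a long non-coding RNA gene overlaps the exons of GYS1 by 170 bp, and FTL lies 1844 bp away. Whether reads were counted by strand is not known, so that the value of GYS1 may hold reads of the opposite strand. ALDOA was above GAPDH (2821) in 8 pigs, while GAPDH exceeded CKM (2460) in all 10, and CKM exceeded ENO3 (1683) in 9. PGAM2 followed at 855, PYGM, muscle glycogen phosphorylase, at 582, PFKM at 256, PKM, pyruvate kinase, at 195 and PDHB, a subunit of pyruvate dehydrogenase, at 192. PKM was above PDHB in 6 of 10 pigs, so that the order of these neighbours was not the same in all pigs. The same held for CKMT2 (42.4) over PFKP (41.2) and for PFKP over GPD1 (39.3), glycerol 3-phosphate dehydrogenase, in 5 of 10 pigs each. GPD1 was above PGK1 (38.1) in 3 of 10 pigs.

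Not every step of the pathway was high. PGK1, which makes ATP from the product of GAPDH, was at 38.1 per kb, and GPI, which interconverts the hexose phosphates, at 51.3, against 2821 for GAPDH, whose step lies between them. UGP2, which makes UDP-glucose for glycogen, was at 32.2 per kb. GYG1, the glycogenin that primes a glycogen particle, was at 5.20 and GBE1, the branching enzyme, at 0.684, so that the genes of glycogen building were spread over the whole order. SLC2A4, the insulin-responsive glucose transporter, was at 7.41. PGK1, GYG1 and SLC2A4 each lie beside a gene of the opposite strand with a higher count (TAF9B 391, HLTF 5130 and CLDN7 215 normalised counts). Whether reads were counted by strand is not known, so that these low values may not be the levels of the genes alone. Together the 36 genes took 1.49% ± 0.254 of the reads in AL and 1.39% ± 0.170 in BI (SD, n = 5 each). The glycogen genes took 0.772% ± 0.0883 and 0.648% ± 0.0917, of which most was counted on GYS1. The glycolysis genes took 0.549% ± 0.136 and 0.560% ± 0.0663, and the phosphagen and adenylate genes 0.161% ± 0.0519 and 0.167% ± 0.0338. The breeds overlapped in each of these shares.

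The comparison of the breeds asks whether loin muscle of the fatter AL and the leaner BI pigs differs in the transcripts of fuel metabolism. No difference between the breeds was detected in any of these genes. The test was limma on log2(normalised count + 1), over the 1513 genes that averaged 50 or more in both breeds, and 18 of the 36 genes met this minimum (10 glycolysis, 4 glycogen, 1 pyruvate entry and 3 phosphagen or adenylate). PHKG1, the catalytic subunit of phosphorylase kinase, lay just outside with means of 49.6 in AL and 54.7 in BI, and PHKA1 (62.8 and 66.3) and PGK1 (66.8 and 67.6) lay just inside. At an adjusted p under 0.05 (Benjamini-Hochberg) the test called 0 of the 18 genes, and 0.00% of all genes tested. At an unadjusted p under 0.05 it called 0 of 18, beside 7.40% of all genes. The exact two-sided permutation test, which cannot give a p below 0.00794 with 5 pigs against 5, gave 0 of 18 an unadjusted p under 0.05, beside 8.00% of all genes. The breeds overlapped in each of the 18, where 1.45% of all genes showed no overlap. DESeq2 on the recovered reads called 1.06% of the same 1513 genes and 0 of these 18.

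The estimates were small and leaned to BI. The fitted difference (AL minus BI, log2 scale) was below 0 in 15 of 18 genes, against 58.0% of all genes tested, with a median of -0.14 against -0.05. This lean depended on single pigs, AL44 most of all, and on the scaling. Without AL44 the same 18 genes divided into 9 with a difference above 0 and 9 below, and without BI34 into 6 and 12. By group the median was -0.12 for glycolysis, -0.10 for glycogen and -0.14 for phosphagen and adenylate genes, and without AL44 these became -0.04, 0.10 and 0.03. PDHB, the single gene tested of pyruvate entry, was at -0.17 with all pigs and -0.30 without AL44. Under TMM scaling, 7 of the 18 were above 0 and 11 below.

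**Figure D2:**
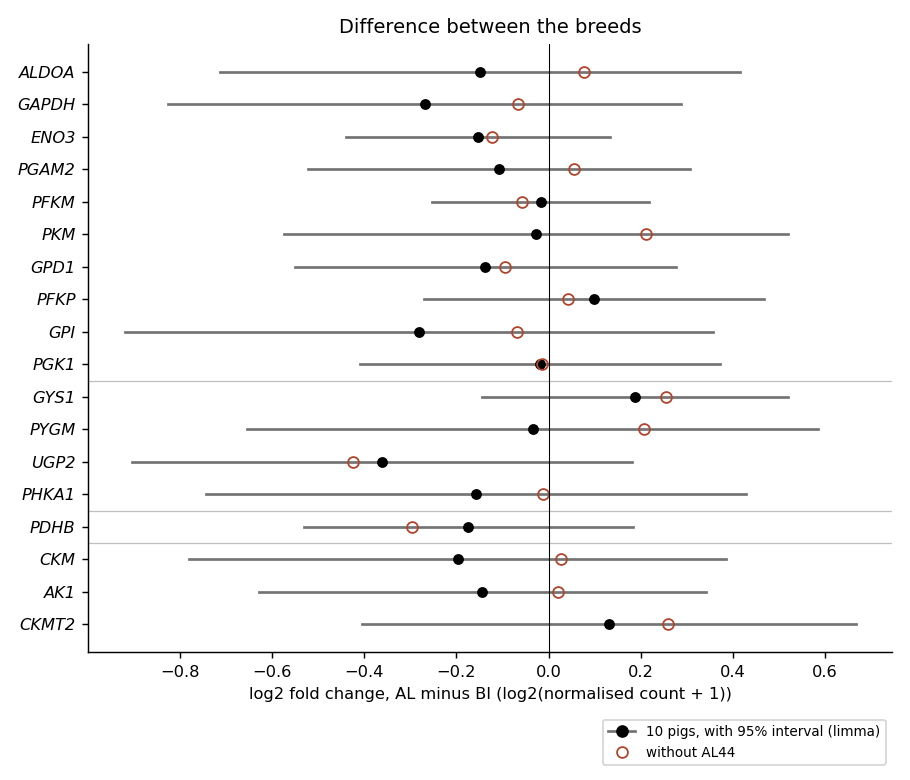
Difference between the breeds (AL minus BI, log2 fold change of normalised count + 1) for the 18 genes tested, with the 95% interval from limma (filled points, 10 pigs) and the estimate without AL44 (open points). Every interval crosses 0, and 6 genes that lie left of 0 with all pigs lie right of it without AL44, among them ALDOA, PYGM and CKM.

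At the start of glycolysis, GPI had 47.2, 145, 70.1, 84.5 and 116 normalised counts in AL44, AL46, AL49, AL52 and AL63, and 100, 167, 76.7, 94.2 and 105 in BI25, BI34, BI36, BI37 and BI42. AL44 was the lowest pig and BI34 the highest, and AL46 and AL63 were above the other 4 BI pigs. The difference was -0.28 (SE 0.295, 95% interval -0.92 to 0.36, limma adjusted p = 0.856), and it ran from -0.47 without AL46 to -0.07 without AL44.

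PFKM (chr5:78475473-78525052, plus strand) had 815, 682, 785, 660 and 718 in the AL pigs in the same order, and 754, 795, 701, 721 and 726 in the BI pigs. The highest and the lowest of the 10 pigs were both AL, and they were only 1.23 times apart. Its difference of -0.02 had the narrowest interval of the 18 genes, from -0.25 to 0.22 (limma adjusted p = 0.971). PFKP had 133, 79.9, 121, 122 and 122 in AL, and 98.02, 96.9, 104, 122 and 112 in BI. Of the AL pigs only AL46 was below the BI pigs. The difference was 0.10 (interval -0.27 to 0.47), with 0.04 without AL44 and 0.22 without AL46.

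ALDOA (chr3:18246036-18260167, plus strand), which cleaves fructose 1,6-bisphosphate, had 2385, 6588, 3835, 4656 and 6342 in AL and 4793, 7453, 4086, 4404 and 4631 in BI. AL44 was the lowest pig and BI34 the highest, with AL46 and AL63 next to BI34. Breed means were 4761 ± 1757 and 5074 ± 1357 (SD, n = 5 each), a difference of -0.15 (interval -0.71 to 0.42) that became 0.08 without AL44.

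GAPDH (chr5:64129678-64135194, minus strand), which oxidises glyceraldehyde 3-phosphate and is often used as a reference gene, had 1983, 5338, 2896, 3351 and 4984 in AL and 4230, 6040, 3244, 3566 and 4401 in BI. The 3 highest pigs (BI34, AL46 and AL63) and the 3 lowest (AL44, AL49 and BI36) were those of ALDOA, and the ends were 3.05 times apart. The difference was -0.27 (interval -0.83 to 0.29, limma adjusted p = 0.849), with -0.42 without AL46 and -0.07 without AL44. PGK1 had 65.1, 70.6, 62.6, 82.7 and 53.2 in AL and 65.1, 56.2, 78.4, 62.1 and 76.1 in BI, with both breeds spread over the same range.

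At the lower end, PGAM2 had 1126, 2563, 1695, 1703 and 2047 in AL and 1940, 2367, 1841, 1693 and 1731 in BI. Both the highest and the lowest pig were AL. ENO3 (chr12:51954614-51959991, minus strand), which makes phosphoenolpyruvate, had 2082, 2701, 1826, 2352 and 2493 in AL and 2686, 2919, 2291, 2276 and 2504 in BI. Here AL49 was the lowest pig, followed by AL44. Its difference was -0.15 (interval -0.44 to 0.13), and it stayed below 0 whichever pig was left out. PKM averaged 532 ± 184 in AL and 521 ± 116 in BI, and its difference of -0.03 changed sign under DESeq2, edgeR and TMM. GPD1, which links glycolysis to glycerol, averaged 136 ± 32.8 and 147 ± 24.9.

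**Figure D3:**
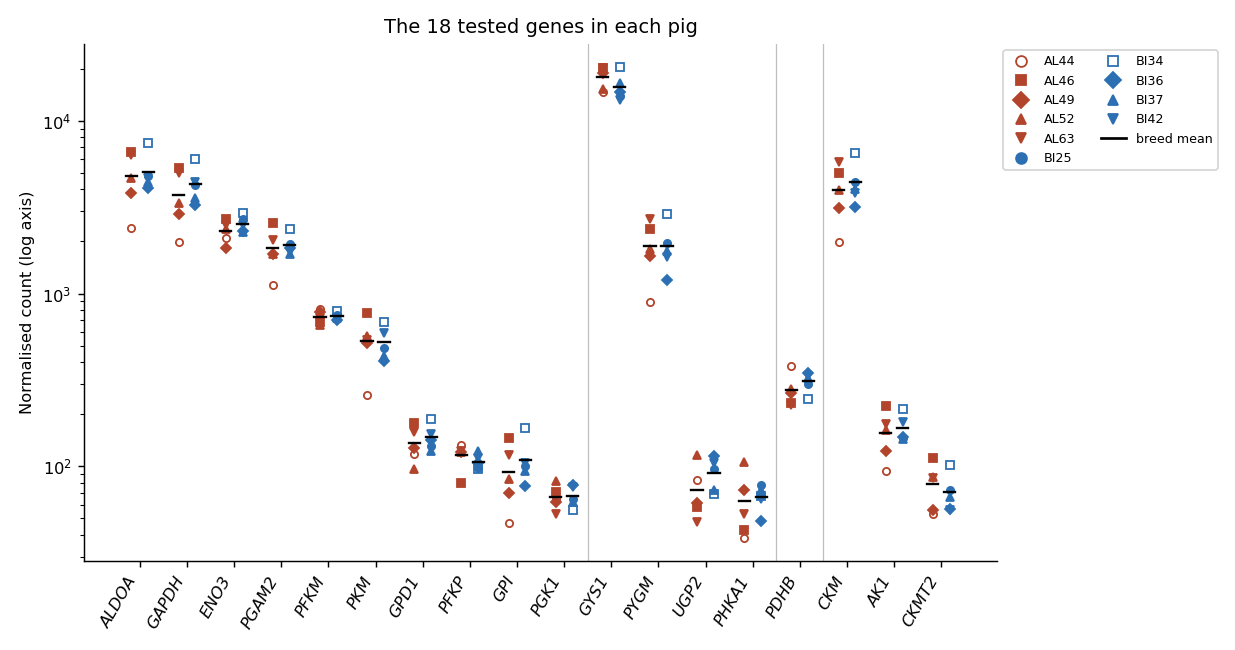
Normalised count (log axis) of each of the 18 genes tested, with 1 symbol per pig (AL red, BI blue) and the breed mean as a bar, in the order glycolysis, glycogen, pyruvate entry and phosphagen or adenylate from left to right. AL44 and BI34, drawn open, mark the lower and upper end in ALDOA, GAPDH, GPI, PYGM and CKM, while in PFKM, PDHB and PFKP AL44 is the highest pig.

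Among the glycogen genes, GYS1 (chr6:54234600-54250211, minus strand) had 14639, 20121, 18945, 15340 and 20156 in AL and 13930, 20310, 14581, 16565 and 13193 in BI. The 4 highest pigs were BI34, AL63, AL46 and AL49, and BI42, BI25 and BI36 were below all AL pigs. Breed means were 17840 ± 2659 and 15716 ± 2858, a difference of 0.19 (interval -0.14 to 0.52, limma adjusted p = 0.820) that ran from 0.13 to 0.28 as each pig was left out. GYS1 was 1 of 3 genes with an estimate above 0, with PFKP and CKMT2.

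PYGM (chr2:7409330-7421256, plus strand), which releases glucose 1-phosphate from glycogen, had 899, 2358, 1652, 1798 and 2698 in AL and 1947, 2881, 1191, 1765 and 1624 in BI. AL44 was again the lowest and BI34 the highest pig, 3.21 times apart. Its breed means were nearly equal, at 1881 ± 693 and 1882 ± 625, and the interval of the difference still ran from -0.65 to 0.58.

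UGP2 had 83.1, 58.6, 61.5, 117 and 47.5 in AL and 96.4, 69.4, 116, 73.2 and 105 in BI. AL46, AL49 and AL63 were below all BI pigs, while AL52 was the highest of the 10. With -0.36 (SE 0.250, interval -0.90 to 0.18) UGP2 had the estimate farthest from 0 and the smallest limma adjusted p of the 18 genes, 0.774. Without AL52 the difference was -0.54, and this was the one case in which leaving out a pig gave any of the 18 genes an unadjusted limma p under 0.05. PHKA1, the regulatory alpha subunit of phosphorylase kinase in muscle, had 38.7, 42.8, 73.4, 106 and 53.2 in AL and 78.2, 67.2, 48.3, 73.2 and 64.4 in BI. The AL values enclosed the BI values, and the interval ran from -0.74 to 0.43. The estimate was -0.37 without AL52 and -0.01 without AL44.

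PDHB (chr13:40161519-40167502, minus strand) had 381, 232, 265, 281 and 227 in AL and 301, 246, 348, 323 and 332 in BI. AL44 was the highest pig, and the other 4 AL pigs lay below every BI pig but BI34. The difference was -0.17 (interval -0.53 to 0.18, limma adjusted p = 0.849), and leaving out any pig gave -0.30 to -0.11.

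CKM (chr6:51704021-51716935, minus strand) had 1994, 5000, 3124, 3964 and 5774 in AL and 4429, 6520, 3180, 4048 and 3806 in BI. AL44 was lowest and BI34 highest. Breed means were 3971 ± 1495 and 4397 ± 1271, a difference of -0.20 (interval -0.78 to 0.38) that became 0.03 without AL44. CKMT2 averaged 78.9 ± 24.7 and 71.0 ± 19.0, and AK1, the adenylate kinase of muscle cytosol, 156 ± 49.7 and 167 ± 30.8, with intervals of -0.41 to 0.67 and -0.63 to 0.34.

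The genes under the minimum of the main test were also examined in a wider set of 3807 genes, those whose counts summed to at least 50 in one of the breeds. This set held 27 of the 36 genes, and limma called 0 of them at an adjusted p under 0.05 (0.0263% of all genes) and 0 at an unadjusted p under 0.05 (9.40% of all). DESeq2 over the same set called 1.44% of all genes and 0 of the 27. The difference was below 0 in 24 of the 27, against 52.5% of all genes. This count also depended on single pigs, since it was 17 of 27 without AL44 (51.8% of all genes), 19 without BI34 (51.5%) and 14 without both (50.6%).

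The smallest p among them belonged to PRKAG3, the muscle AMPK subunit in which changes are known to alter loin glycogen in pigs. PRKAG3 (chr15:120859486-120866308, minus strand) had 38.7, 18.6, 12.9, 27.6 and 12.4 normalised counts in the AL pigs and 32.9, 20.9, 34.5, 34.1 and 34.9 in the BI pigs. AL44 was the highest of the 10 pigs, and the other 4 AL pigs lay below every BI pig but BI34. Breed means were 22.1 ± 11.13 and 31.5 ± 5.93, with a difference of -0.60 (interval -1.27 to 0.07, limma adjusted p = 0.598 over the wider set) and an exact permutation p of 0.103. The difference was -0.83 without AL44 and -0.73 without BI34, for which no test was run. PGAM1, the phosphoglycerate mutase of other tissues, averaged 7.33 ± 3.26 and 12.1 ± 4.11, a difference of -0.68 (interval -1.51 to 0.15). AMPD1, the muscle AMP deaminase, was steady at 25.1 ± 2.48 and 26.4 ± 6.75.

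Other glycogen regulators overlapped as well. PPP1R3A, which targets the phosphatase that activates glycogen synthase, averaged 30.5 ± 7.80 in AL and 38.9 ± 15.3 in BI. PHKB, the beta subunit of phosphorylase kinase, averaged 16.5 ± 6.39 and 20.2 ± 6.49, PHKG1 49.6 ± 7.67 and 54.7 ± 10.2, SLC2A4 16.4 ± 7.69 and 19.8 ± 12.6, and GYG1 8.42 ± 2.75 and 11.14 ± 2.93. FBP2, the fructose bisphosphatase of muscle, averaged 24.4 ± 11.5 and 23.6 ± 6.14.

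The remaining 9 genes were in neither set. HK2, ENO1, PDHA1 and DLAT had between 25 and 52 reads in the pigs of a breed together. PDHA1, the catalytic alpha subunit of pyruvate dehydrogenase, averaged 8.72 ± 2.18 in AL and 9.79 ± 5.65 in BI, against 278 and 310 for PDHB, its partner in the same complex. Both lie beside a gene of the opposite strand with a higher count (MAP3K15 1854 and PXK 505). This contrast may therefore not be of the levels of PDHA1 and PDHB alone. DLAT, the acetyltransferase core, averaged 5.47 ± 1.91 and 7.92 ± 3.32. HK1, PFKL, ALDOC, GBE1 and MPC2, a subunit of the mitochondrial pyruvate carrier, had means at or under the lower limit of 3 reads in both breeds, and no fold is given for them.

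A block of these genes varied together from pig to pig. AL44 was the lowest of the 10 pigs in 10 of the 18 genes, against 15.8% of all genes tested, and BI34 the highest in 8 of the 18, against 15.0% of all genes. AL46 was the highest pig in 4 of the 18 (8.26% of all genes), and AL44 in 3, PFKM, PFKP and PDHB (18.9% of all genes). In AL44 the level as a share of the mean of the other 4 AL pigs was 0.445 for ALDOA, 0.479 for GAPDH, 0.447 for CKM, 0.423 for PYGM, 0.431 for PKM and 0.454 for GPI. The same ratio was 1.15 for PFKM, 1.20 for PFKP and 1.52 for PDHB. AL44 was the pig with the lowest share of reads in the 10 highest genes (48.5%) and the lowest sum over the fast fibre genes (15101), and BI34 the pig with the highest of both (60.3% and 35396). Their part in the pattern was not tested.

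**Figure D4:**
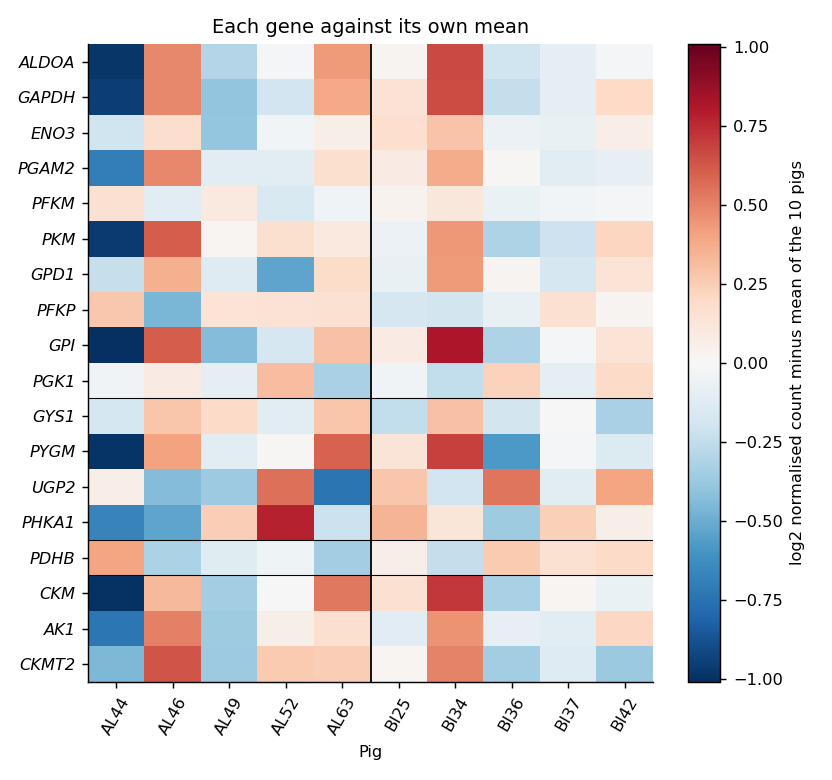
Log2 normalised count of each of the 18 genes in each of the 10 pigs, minus the mean of that gene over the pigs, with blue below and red above the mean and breeds divided by the vertical line. ALDOA, GAPDH, GPI, PKM, PYGM and CKM are deep blue in AL44 and red in AL46 and BI34, PFKM is pale throughout, and PDHB and PFKP are red in AL44.

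To describe how closely the genes moved together, the ratio of each gene to CKM was taken within each pig, which removes the size factor, and its SD over the 10 pigs was ranked among the 1512 other genes tested. ALDOA ranked 1st, with an SD of 0.099 on the log2 scale and a ratio between 1.08 (BI25) and 1.32 (AL46), although CKM itself varied 3.27 times between pigs. PYGM ranked 3 (SD 0.125), GAPDH 4 (SD 0.143) and GPI 5 (SD 0.160), where the median gene had an SD of 0.580. Chosen after their values were seen, the 2nd gene was EEF1A2, the translation elongation factor of muscle and neurons, the 6th SRL, a calcium-binding protein of the sarcoplasmic reticulum, and the 8th ACTN3, the alpha-actinin of fast fibres.

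AK1, PGAM2, PKM and CKMT2 followed at ranks 21, 25, 38 and 40, so that 8 of the 17 ranked genes were among the first 40, which are 2.65% of all. Without AL44 and BI34, the pigs at either end, ALDOA ranked 2, PYGM 5, GAPDH 7 and GPI 12, and 7 of the 17 were among the first 40. These were not all the same genes, as PKM (rank 181) and AK1 (rank 43) were no longer among them and ENO3, at rank 108 with all pigs, was at rank 28. GPI is the least abundant of these 4, at a mean of 101 normalised counts. The ranks are a description over 10 pigs of 2 breeds, and counting error, which is smaller in high-count genes, is part of each SD.

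Other steps of the same pathways kept no such ratio. PFKM ranked 582, and its ratio to CKM ran from 0.122 in BI34 to 0.409 in AL44. PDHB ranked 1067, between 0.0377 in BI34 and 0.191 in AL44, and UGP2 ranked 1207. GYS1 was at rank 197, with 3.11 reads per CKM read in BI34 and 7.34 in AL44. PFKM also had the smallest SD of log2 count of the 18 genes, 0.099, against a median of 0.319 over all genes. Between the highest and the lowest pig PFKM differed 1.23 times and ENO3 1.60 times, where ALDOA differed 3.13, PYGM 3.21 and GPI 3.55 times.

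Fibre type genes had the following values in the same pigs. The 4 slow fibre genes tested (TNNT1, TNNI1, TNNC1 and ATP2A2) all had an unadjusted limma p under 0.05 with higher values in AL (smallest adjusted p 0.336). Beside them, 7.40% of all genes had an unadjusted p under 0.05. With MYL2 and MYL3, which were too low for this test, the 6 genes of the slow fibre list summed to 761 to 1449 in AL and 447 to 796 in BI. Of 9 fast fibre genes tested, 7 had an estimate below 0 (higher in BI), against 58.0% of all genes. TNNT3 was the 1 of these 9 with an unadjusted limma p under 0.05 (difference -0.47, limma adjusted p = 0.381, exact permutation p = 0.0159). PVALB, of the same list but too low for the limma test, averaged higher in AL, at 2.96 (15 reads) against 0.94 in BI (5 reads). The fast fibre list summed to between 15101 and 27374 in AL and between 23057 and 35396 in BI. By their ratio to CKM the 9 fast fibre genes ranked between 8 (ACTN3) and 140 (MYL1), and the 4 slow fibre genes between 1131 (TNNI1) and 1367 (ATP2A2). Without AL44 and BI34 the ranges overlapped, at 6 (MYBPC2) to 662 (MYL1) for the fast genes and 478 (TNNT1) to 1344 (ATP2A2) for the slow genes. Adipocyte genes summed to 101 to 170 in AL and 86.6 to 198 in BI, with ADIPOQ at a mean of 0.36 and 0.21, fibroblast genes to 75.5 to 138 and 51.8 to 116, and endothelial genes to 3.24 to 17.7 and 2.20 to 9.88. Blood and immune genes summed to 258 to 395 in AL and 267 to 411 in BI, and stress response genes to 50.04 to 247 and 57.1 to 95.1. The part of fibre type and other cells in the values of the glycolysis genes was not tested.

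The libraries were made with strand information, but whether reads were counted by strand is not given in the sources used here, so that reads of a gene and of an antisense partner cannot be told apart. Of the 36 genes, 23 had a RefSeq gene on the opposite strand overlapping or within 5 kb, and for 22 pairs both genes were in the table. The neighbour had the higher count in 8 pairs and the listed gene in 14. The 8 include several of the low genes above. GYG1 averaged 9.78 normalised counts beside 5130 for HLTF, a DNA translocase gene 1630 bp away. PDHA1 averaged 9.26 beside 1854 for MAP3K15, a kinase gene whose exons overlap its own by 784 bp. PHKG1 averaged 52.2 beside 998 for SUMF2, with 109 bp of overlapping exons.

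SLC2A4 averaged 18.1 beside 215 for CLDN7, a tight junction gene of epithelia that lies 370 bp away, and 79.1 for YBX2, a germ cell gene 418 bp away. PGK1 averaged 67.2 beside 391 for TAF9B, PDHB 294 beside 505 for PXK, and MPC2 1.60 beside 27.3 for DCAF6. Among the abundant genes the order was the other way, as their own high counts make likely. GAPDH averaged 4003 beside 41.7 for IFFO1, PFKM 736 beside 3.18 for SENP1, and GYS1 16778 beside 1288 for RUVBL2 and 20.4 for FTL. Other genes of the opposite strand overlap exons of GAPDH (314 bp), GYS1 (170 bp), PGAM2 (122 bp) and ALDOA (83 bp). They were not matched to the table, so that their counts are not known. Read by breed, none of SUMF2 (-0.33, limma adjusted p = 0.691), HLTF (-0.13, 0.876), MAP3K15 (-0.09, 0.924), CLDN7 (-0.41, 0.760) and YBX2 (0.47, 0.713) passed the test. Nor did TAF9B (0.05, 0.963), PXK (-0.22, 0.875), RUVBL2 (0.07, 0.952) and PFN1 beside ENO3 (0.09, 0.877). PITRM1 beside PFKP (means of 48.0 in AL and 34.3 in BI) and IFFO1 (29.4 and 54.0) were too low for limma. Their unadjusted exact permutation p were 0.0159 and 0.0317, where 8.00% of all genes tested were under 0.05.

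**Figure D5:**
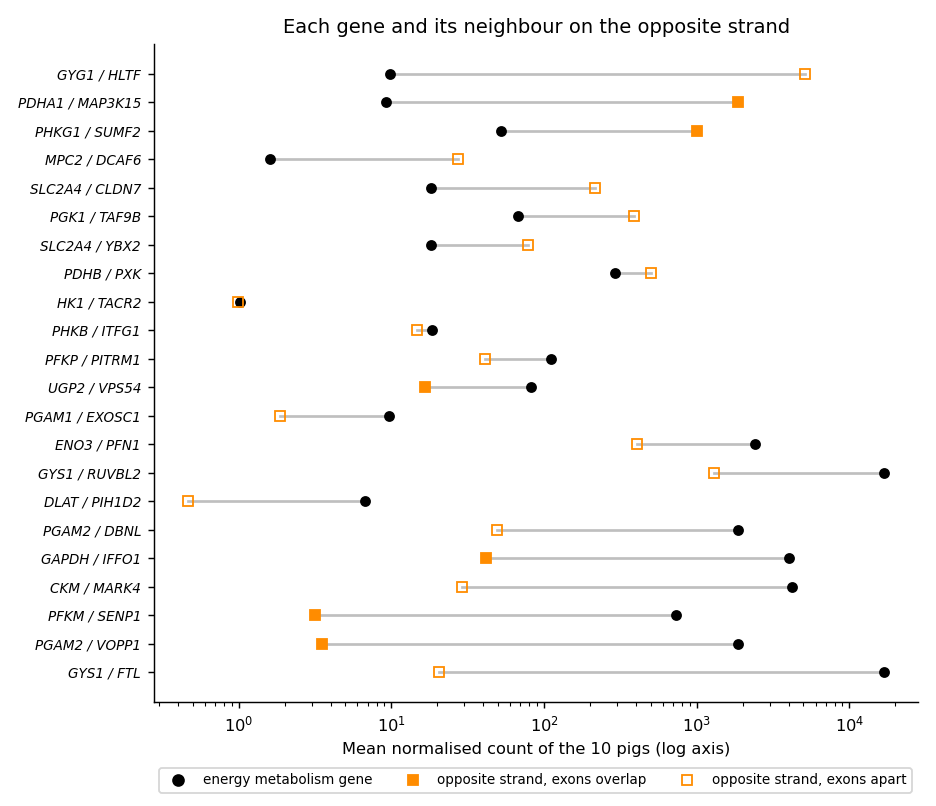
Mean normalised count of the 10 pigs (log axis) for each listed gene (black) and its neighbour on the opposite strand (squares, filled where exons overlap), for the 22 pairs with both genes in the table, ordered by the ratio of the neighbour to the gene. In the 8 pairs at the top, from GYG1 to PDHB, the neighbour is higher, and in the 14 pairs below it is lower.

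Of the other genes of these pathways, few were high enough for the main test and 0 passed an adjusted p under 0.05 in it. The wider set held 5 genes of the wider glycolysis list, 11 of glycogen, 5 of pyruvate entry and 7 of phosphagen and adenylate. Their results in that set are not given here. In the wider glycolysis list 3 of 23 genes were tested, TPI1, the triose phosphate isomerase (0.07), LDHA, the lactate dehydrogenase of fast muscle (-0.24), and SLC2A12, a glucose transporter (-0.08). In the wider glycogen list 5 of 29 were tested, and CALM3, a calmodulin gene that codes for the delta subunit of phosphorylase kinase, came closest, with 61.0 ± 12.5 in AL and 88.4 ± 17.6 in BI (difference -0.53, limma adjusted p = 0.501). Its unadjusted limma p was 0.0209 and its exact permutation p 0.0159, where 7.40% and 8.00% of all genes tested were under 0.05. GSK3A, the kinase that inhibits glycogen synthase, was at 0.19 and PPP1CA, a phosphatase subunit, at -0.15. CS, citrate synthase, was the single gene of 11 tested for pyruvate entry (-0.30). Of 13 phosphagen and adenylate genes 3 were tested, ADSS1, which makes adenylosuccinate (0.06), SLC6A8, the creatine transporter (0.05), and SLC25A4, the muscle ADP/ATP carrier (-0.22).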

How the data were processed

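The 10 loin libraries, 1 for each of 5 AL and 5 BI pigs, were grouped by the breed label. Before deposit, the authors used Trim Galore 0.5.0 for trimming, HISAT2 2.1.0 for alignment to Sscrofa11.1 and HTSeq 0.11.1 for counting on the genes of Ensembl release 94. How reads matching several places were handled, which matters for genes with processed copies such as GAPDH, is not given in the sources used here. The signal that the authors deposited is a normalised count, made by scaling the counts of a pig with its DESeq2 size factor, with its mean over pigs. The deposited log2 fold changes, the deposited scores (standard error and Wald statistic) and the deposited p-values hold the authors' own comparison and were not used. All per-pig columns were mapped.

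Every value was a whole multiple of the smallest value above 0 in its pig (100% within 0.01 of a read), so reads were recovered. Depth was 2298045 to 3343194 reads on genes per pig, and the limit of 3 reads covers counting error only, while the limma intervals cover the spread between pigs. limma 3.58.1 (R 4.3.3, with trend, no covariate) was run on log2(normalised count + 1) for the 1513 genes that averaged 50 or more in both breeds. The study states a minimum of 50 reads per group, which can be read as a mean, as here, or less strictly as a sum, as in the wider set of 3807 genes. The log2 differences are on this scale and understate changes of low genes. Single genes were tested with an exact permutation test over 252 divisions of the pigs. Separate pigs are the replicates. Because the labels pair no pigs and give no batch, none was fitted.

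As alternatives the pseudocount was set to 0.1 or 10, the minimum of 50 was applied in other ways or dropped, and the fit was repeated with the library size less the 10 highest genes, TMM, limma-voom, DESeq2 1.42.0 and edgeR 4.0.16 (quasi-likelihood) on recovered reads, and each pig left out. DESeq2 over the wider set, the differences of the wider set without AL44 or BI34, and the ratios to CKM without both were added after seeing the data. The members and the lists of pathway and marker genes were chosen with earlier results of these data known. All 38 members are named, with the 3 genes of smallest p in each pathway list and the opposite-strand neighbours. Transcript lengths (median per gene), positions and sequences come from RefSeq annotation release 106 of Sscrofa11.1, whose gene borders can differ from those counted. The fits were tested on simulated data. Python 3.11.15, pandas 2.3.3, scipy 1.17.1 and matplotlib 3.10.9 were used.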

Additional observations from a re-analysis of the deposited data

Results flagged for a closer look

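A pig far from the other 4 of its breed was found in 7 of 90 groups of 5 pigs by Dixon's ratio above 0.71, and chance alone marks about 1 in 20 groups. ALDOA in BI34 was at 7453 normalised counts, where the other BI pigs were at 4086 to 4793. PFKP in AL46 was at 79.9, where the other AL pigs were at 121 to 133. PRKAG3 in BI34 was at 20.9 (19 reads), where the other BI pigs were at 32.9 to 34.9, so that this pig was low in PRKAG3 and high in ALDOA. The other 4 cases rest on 5 reads or fewer: HK1 in AL63 at 4.52 (others 0 to 1.08), PFKL in BI37 at 5.01 (others 0 to 1.06), ALDOC in BI34 at 1.10 (1 read, others 0) and DLAT in AL49 at 2.16 (2 reads, others 5.58 to 6.79). No pig was left out for these values.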

How the results depend on the processing

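Over 22 alternatives, 369 of 393 differences of the tested genes kept their sign and 0 passed an adjusted p under 0.05 (adjusted p 0.445 to 0.99985 over limma, DESeq2 and edgeR). The sign held in every alternative for 9 of the 18 genes. Signs turned under TMM for PFKM (0.018), PGK1 (0.016), PKM (0.0085) and PYGM (0.00087), and PKM reached 0.030 under DESeq2, under DESeq2 over the wider set and under edgeR. With each pig left out, signs turned within PFKM -0.057 to 0.019, ALDOA -0.29 to 0.078, PGK1 -0.099 to 0.058, PGAM2 -0.24 to 0.054, PKM -0.18 to 0.21, PYGM -0.19 to 0.21, CKM -0.36 to 0.027, CKMT2 -0.010 to 0.27 and AK1 -0.29 to 0.020. Medians then ran from -0.23 to -0.04 for glycolysis, -0.22 to 0.10 for glycogen, -0.30 to -0.11 for pyruvate entry and -0.29 to 0.03 for phosphagen and adenylate genes (highest without AL44, except for pyruvate entry, which was lowest then). Of all genes, limma called 0, DESeq2 16, and DESeq2 over the wider set 55. Limma called 1 with a mean or a sum of 50 in one breed, 40 with no minimum, and 0 to 1 with a pig left out. At an unadjusted p limma had 112, 358 with the sum of 50, 936 with no minimum and 84 to 180 with a pig left out, and DESeq2 over the wider set 354. Members at an unadjusted p numbered 0, and 0 to 1 with a pig left out. The cause was not tested, beyond the number of genes each set holds. TMM put 48.2% of all genes higher in AL, against 41.97%. No paired analysis was possible because the labels number animals, not pairs. Depth limits the 9 genes under both minimums.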
